A study of Homo sapiens with 18 samples.

Results

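The Kruppel-like factors (KLFs) are transcription factors that share a row of zinc fingers at the C terminus and bind GC-rich and CACCC-containing DNA. The rest of the protein differs between members and decides which cofactors are recruited: KLF2, KLF4, KLF5, KLF6 and KLF7 are known mainly for working with acetyltransferases, KLF9, KLF10, KLF11 and KLF13 bind the SIN3A corepressor, and KLF12 binds the CtBP corepressors. In fibroblasts and the vessel wall, several of them are early-response genes that switch on quickly after a stress or a growth factor signal. The 10 genes KLF2, KLF4, KLF5, KLF6, KLF7, KLF9, KLF10, KLF11, KLF12 and KLF13 were taken by symbol from a table of 56269 genes. They lie on chromosomes 19 (KLF2), 9 (KLF4 and KLF9), 13 (KLF5 and KLF12), 10 (KLF6), 2 (KLF7 and KLF11), 8 (KLF10) and 15 (KLF13). All 10 had a mean normalized count of at least 10 over the libraries and were among the 13686 genes tested.

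Polyadenylated RNA was sequenced from IMR90 cells, a line of human lung fibroblasts, in 6 groups of 3 libraries. All cells were first kept for 6 h with PBS, with cNSF or with fNSF, the last 2 at 20 µg/ml. NSF are naked mole-rat skin fibroblasts, and both preparations are hyaluronan (HA) purified from them: in fNSF the HA was cut into shorter polymers by a mild digestion with hyaluronidase, and cNSF is the heated control preparation with the enzyme inactivated. The groups PBS, cNSF and fNSF were collected at the end of the pre-incubation, whereas the groups PBS + tBHP, cNSF + tBHP and fNSF + tBHP then received 200 µM tert-butyl hydroperoxide (tBHP), an oxidant, for 1 h without HA and were collected 6 h after its start. The libraries without tBHP were thus taken at an earlier time than those with it, and without the change of medium that came before the oxidant. The oxidant, the change of medium and the elapsed time cannot be told apart in any comparison with and without tBHP. The methods of the study call all replicates biological, and the labels do not say whether the 3 libraries of a group came from separate cultures. The p-values measure the spread between these libraries, with 1 estimate per gene shared by all 6 groups.

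The values, called normalized counts here, are gene-level read numbers after division by a DESeq2 size factor for each library. Libraries held 20261103 to 26287660 reads on genes, and the KLF genes held from 36 reads (KLF9 in 1 library) to 7379 reads (KLF6 in 1 library). The median SD within groups over all genes tested was 0.0761 on the log2 scale without tBHP and 0.206 after it. For a gene with that pattern, the shared estimate of spread is too large without tBHP and too small after it. After tBHP, the fNSF library of replicate 2 stood apart: the fifth of genes with the highest transcript GC content (at least 57.8%) lay at a median of -0.61 log2 relative to the average of the 9, against -0.13 to 0.25 in the other 8. Fibroblast identity was checked with 9 marker genes, all 9 of which had mean normalized counts of 412 or more. Of the markers of other cell types, the endothelial CDH5 and the epithelial KRT5 and SFTPC were at 0 in every library, the 4 blood markers summed to at most 13.7 normalized counts in a library, and TEK, an endothelial receptor gene, was present at a mean of 1131.

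The promoter sequences of 5 of the 6 KLF genes that rose after tBHP in all 3 pre-incubations are shown here, because transcription of these genes starts at their ends. Each is the stretch of 250 bases before the RefSeq transcription start (GRCh38.p14), in the direction of transcription, without any bases that GENCODE release 29 places in an exon of the gene. The table had windows for 9 of the 10 genes and none for KLF10. Capitals mark matches, on either strand, to the CACCC box (CACCC), the GC box (GGGCGG), the core of the cyclic AMP response element (TGACG), the AP-1 motif (TGANTCA), the core of the antioxidant response element (TGACNNNGC), the E-box (CACGTG), the TATA box (TATAAA), the MEF2 motif and the CArG motif.
KLF2, chr19:16324576-16324816, plus strand: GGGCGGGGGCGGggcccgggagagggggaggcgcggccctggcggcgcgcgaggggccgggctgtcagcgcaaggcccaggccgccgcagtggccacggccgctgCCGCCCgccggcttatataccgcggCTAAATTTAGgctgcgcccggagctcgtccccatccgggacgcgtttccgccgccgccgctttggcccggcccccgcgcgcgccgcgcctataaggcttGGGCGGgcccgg
KLF4, chr9:107489770-107490019, minus strand: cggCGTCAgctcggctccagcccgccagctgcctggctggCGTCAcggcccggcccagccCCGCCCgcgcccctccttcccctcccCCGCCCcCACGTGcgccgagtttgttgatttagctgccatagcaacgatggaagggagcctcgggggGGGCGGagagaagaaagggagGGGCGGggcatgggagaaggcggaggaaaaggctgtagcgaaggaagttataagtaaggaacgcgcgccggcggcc
KLF6, chr10:3785282-3785459, minus strand: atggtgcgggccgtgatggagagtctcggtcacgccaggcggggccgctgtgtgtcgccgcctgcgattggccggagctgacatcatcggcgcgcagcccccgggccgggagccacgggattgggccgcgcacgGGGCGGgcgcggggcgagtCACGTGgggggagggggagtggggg
KLF9, chr9:70414658-70414907, minus strand: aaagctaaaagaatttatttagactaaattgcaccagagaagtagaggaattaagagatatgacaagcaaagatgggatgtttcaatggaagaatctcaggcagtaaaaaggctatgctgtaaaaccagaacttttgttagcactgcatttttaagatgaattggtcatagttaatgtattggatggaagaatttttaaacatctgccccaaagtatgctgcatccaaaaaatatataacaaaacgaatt
KLF13, chr15:31326585-31326834, plus strand: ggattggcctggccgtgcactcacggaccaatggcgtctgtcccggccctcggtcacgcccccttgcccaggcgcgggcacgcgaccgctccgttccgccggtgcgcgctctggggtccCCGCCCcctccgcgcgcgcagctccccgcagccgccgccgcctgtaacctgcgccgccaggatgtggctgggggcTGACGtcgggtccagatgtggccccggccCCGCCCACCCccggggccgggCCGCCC
The KLF4 stretch lies in an intron of a longer GENCODE model of KLF4, and the others lie outside the GENCODE gene. KLF2 lost 9 bases and KLF6 lost 72 bases at the end of the window to the exon rule.

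The 5 promoters did not look alike. In the full windows, KLF2 had 4 GC boxes and a MEF2 motif. A MEF2 motif was found in 0.515% of the 35116 promoter windows of the table. KLF4 had 4 GC boxes, 2 cyclic AMP response element cores and an E-box, KLF6 had 2 GC boxes and an E-box, and KLF13 had 3 GC boxes, a CACCC box that overlaps 1 of them, and 1 cyclic AMP response element core. GC boxes were found in 42.6% of all windows, cyclic AMP response element cores in 21.2%, CACCC boxes in 54.7% and E-boxes in 6.34%. KLF9 held none of the 9 motifs in its window, and its GC content was 32.4% against 80% in KLF2 and a median of 58% over all windows. None of the 5 had an AP-1 motif (6.57% of all windows), an antioxidant response element core (10.9%), a TATA box as spelled above (10.7%) or a CArG motif (1.16%). A match is a string of letters, not a bound site.

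Levels can be set side by side between genes only per length, so normalized counts were divided by the exon length in kb. In PBS cells without tBHP, the order was KLF6 (795 ± 14.5 per kb, SD, n = 3), KLF10 (692 ± 27.7), KLF2 (258 ± 6.79), KLF7 (158 ± 5.09), KLF12 (85.2 ± 3.28), KLF5 (42.6 ± 5.99), KLF4 (42.4 ± 6.59), KLF11 (26.8 ± 3.42), KLF13 (16.2 ± 1.77) and KLF9 (10.9 ± 2.40). Only the neighbours KLF5 and KLF4 overlapped between libraries. Of the 10, the most abundant transcripts were thus those of KLF6, an early-response factor also known as a tumour suppressor, and KLF10, the TGF-beta inducible early gene. After tBHP, the first 4 places were unchanged, and KLF4 moved from place 7 to place 5 at 172 ± 14.5 per kb, where it overlapped KLF7 (194 ± 10.2) and passed KLF12 (67.3 ± 5.43) and KLF5 (46.1 ± 2.20). At the low end, KLF11, KLF13 and KLF9 overlapped with their neighbours after tBHP, at 30.2, 26.8 and 24.4 per kb.

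**Figure D1:**
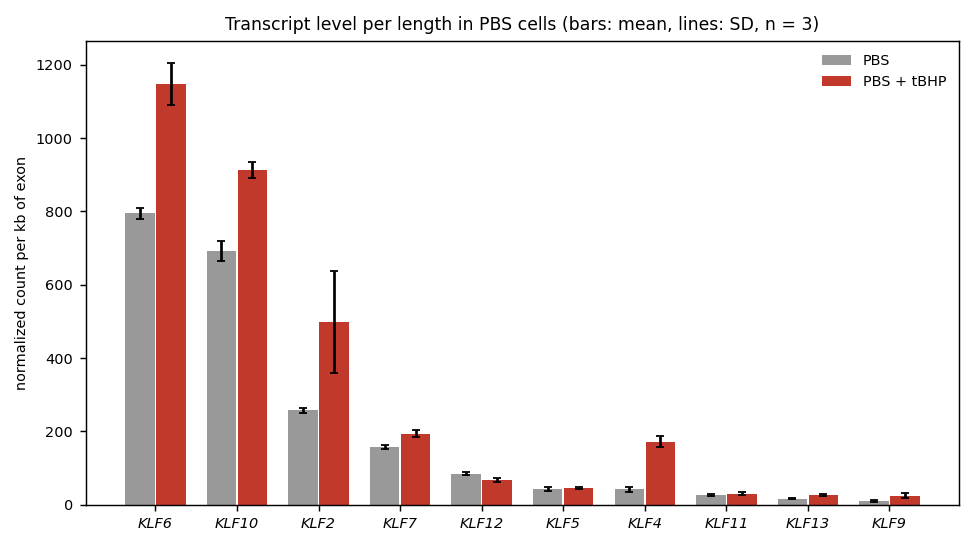
Transcript level of the 10 KLF genes in PBS cells without tBHP (grey) and with tBHP (red), as normalized counts per kb of exon on a linear axis from 0. Bars are means of 3 libraries and lines the SD, ordered by the level without tBHP. KLF6, KLF10 and KLF2 stand highest in both states, and KLF4 goes from 42.4 to 172 per kb.

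The tBHP response was the first comparison, asked separately in cells pre-incubated with PBS, cNSF and fNSF, which share no libraries. In PBS cells, 6 of the 10 KLF genes were higher after tBHP (KLF4, KLF9, KLF2, KLF13, KLF6 and KLF10), 1 was lower (KLF12), and KLF5, KLF7 and KLF11 did not pass the test (limma, Benjamini-Hochberg adjusted p under 0.05). Over all genes tested, 24.2% were higher and 26.9% lower. The median log2 difference of the 10 genes was 0.46, against 0.0043 over all genes tested. In cNSF cells, again 6 were higher and 1 lower (background 24.0% and 26.8%), and in fNSF cells 7 were higher and 0 lower (background 19.2% and 22.7%), or 4 in all without fNSF replicate 2 (background 34.9% in either direction) and in a fit of those groups alone (31.2%). KLF2, KLF4, KLF6, KLF9, KLF10 and KLF13 passed as higher in all 3 responses, which held for 14.6% of all genes tested. For 5 of these, KLF2, KLF4, KLF6, KLF9 and KLF10, every one of the 9 libraries with tBHP was above every one of the 9 without. A separation of that kind, in either direction, was found for 27.8% of all genes tested. RNA was taken from whole cultures, so a change in the cells that were present and a change in the RNA per cell cannot be told apart.

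**Figure D2:**
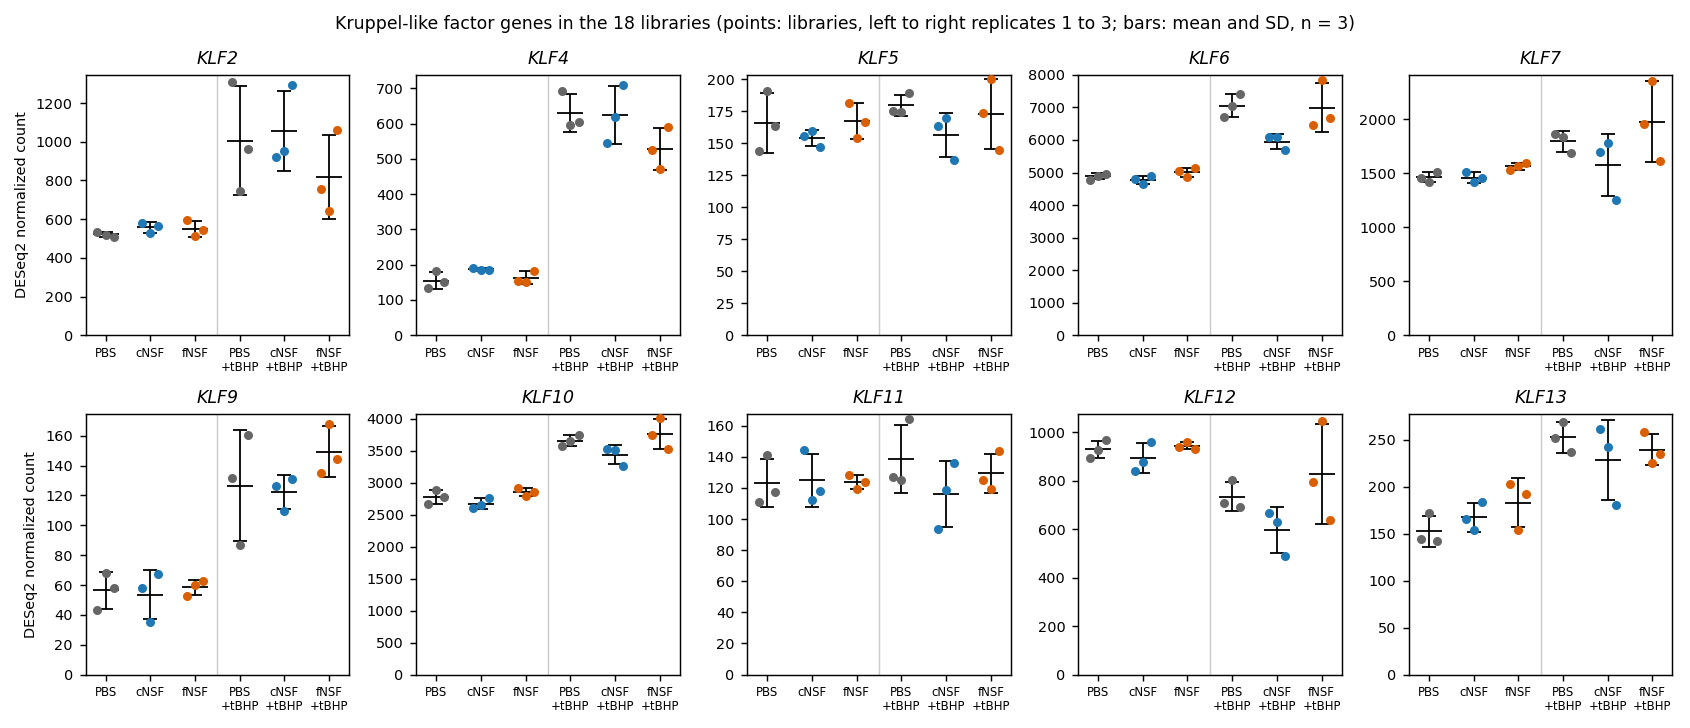
Normalized counts of the 10 KLF genes in all 18 libraries, 1 panel per gene with a linear axis from 0. Points are libraries, coloured by pre-incubation, and bars show the mean and SD of 3 libraries, with the groups without tBHP to the left of the grey line. KLF2, KLF4, KLF6, KLF9 and KLF10 lie higher in all 9 libraries with tBHP, and KLF12 lies lower in 8 of the 9.

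KLF4 had the largest response of the 10 genes. KLF4 is a factor of growth arrest and differentiation in epithelia and the vessel wall, is one of the factors used to reprogram fibroblasts, and is known to be induced downstream of p53. In PBS cells the normalized counts were 133, 181 and 151 without tBHP and 692, 597 and 604 after it. In cNSF cells they were 192, 185 and 184 without tBHP and 546, 619.9 and 711 after it, and in fNSF cells 155, 152 and 184 and 524, 471 and 590.0. The highest library without tBHP held 192 and the lowest with tBHP 471, so the 2 states were wide apart. The means in PBS cells went from 155 ± 24.1 to 631 ± 53.2 (SD, n = 3), a log2 difference of 2.02 (SE 0.13; adjusted p = 6.14e-10, limma) or 4.07-fold. The log2 difference was 1.73 in cNSF cells (adjusted p = 5.94e-09, limma) and 1.69 in fNSF cells (adjusted p = 7.63e-09, limma).

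KLF2 is the factor that keeps endothelium quiescent under flow, and it is switched on by the kinase ERK5 through MEF2 factors. Its normalized counts in PBS cells were 535, 519.7 and 508 without tBHP and 1307, 746 and 964 after it. The corresponding values were 578, 528 and 564 and 921, 949.7 and 1293 in cNSF cells, and 595, 515 and 541 and 753, 644 and 1061 in fNSF cells. The libraries without tBHP were tightly grouped, between 508 and 595, and those with tBHP were higher but spread from 644 to 1307. The log2 response was 0.91 (SE 0.18) in PBS cells, 0.90 in cNSF cells and 0.54 in fNSF cells, with adjusted p of 0.000415, 0.000461 and 0.0215 in limma. In fNSF cells the call was lost without fNSF + tBHP replicate 3 (log2 0.34, adjusted p = 0.116), without fNSF replicate 2 (adjusted p = 0.073) without fNSF replicate 3 (adjusted p = 0.0571) and in a fit of those groups alone (adjusted p = 0.0564).

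KLF6 and KLF10, the 2 most abundant members, rose by less and with little spread. KLF6 held 4784, 4899.8 and 4958 normalized counts in PBS cells without tBHP and 6691, 7045 and 7399 after it. In cNSF cells KLF6 held 4808, 4633 and 4887 without tBHP and 6081, 6082 and 5694 after it, and in fNSF cells 5040.4, 4853 and 5131 and 6455, 7849 and 6671. These are log2 differences of 0.53 (SE 0.069; adjusted p = 5.53e-06, limma) in PBS cells, 0.32 in cNSF cells (adjusted p = 0.000915) and 0.48 in fNSF cells (adjusted p = 2.28e-05). KLF10, a repressor that TGF-beta induces within a short time, held 2662, 2884 and 2769.8 normalized counts in PBS cells and 3567, 3652 and 3739.8 after tBHP. Its values were 2603, 2648 and 2765 and 3526, 3516 and 3267 in cNSF cells, and 2914, 2788 and 2859 and 3737, 4005 and 3532 in fNSF cells. The KLF10 response was close to the same size in the 3 pre-incubations, at 0.40, 0.36 and 0.40 on the log2 scale (adjusted p of 3.42e-05, 9.59e-05 and 4.84e-05, limma). All 9 libraries with tBHP were above all 9 without for both genes.

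Among the other SIN3A-binding members, KLF9 and KLF13 rose and KLF11 did not pass the test. KLF9, known as a gene induced by glucocorticoids, thyroid hormone and NRF2, was the rarest member per length in PBS cells without tBHP and had the next largest response after KLF4. It held 43.5, 68.1 and 57.9 normalized counts in PBS cells and 132, 87.1 and 161 after tBHP. In cNSF cells it held 58.2, 35.2 and 67.2 and 126, 109.6 and 131, and in fNSF cells 53.0, 60.1 and 62.4 and 135, 168 and 145. The lowest library with tBHP, PBS + tBHP replicate 2, was still above the highest of the 9 without tBHP. The log2 response was 1.13 (SE 0.23; adjusted p = 0.000612, limma) in PBS cells, 1.22 in cNSF cells (adjusted p = 0.000304) and 1.33 in fNSF cells (adjusted p = 0.000167).

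KLF13, a factor best known in T lymphocytes, where it turns on the chemokine gene CCL5, held 144, 172 and 142 normalized counts in PBS cells and 252, 269 and 236 after tBHP. Its values were 165, 153 and 184 and 261, 242 and 179.9 in cNSF cells, and 203, 154 and 192 and 258, 226 and 235 in fNSF cells. Of the 9 libraries with tBHP, 8 lay above all 9 without, and cNSF + tBHP replicate 3 was the exception. The log2 response was 0.73 in PBS cells, 0.43 in cNSF cells and 0.39 in fNSF cells (adjusted p of 0.000322, 0.0164 and 0.0305, limma). In cNSF cells the call was lost without cNSF replicate 2 (adjusted p = 0.0708), cNSF + tBHP replicate 1 (0.0878) or cNSF + tBHP replicate 2 (0.0619). In fNSF cells it was lost without fNSF replicate 2 (adjusted p = 0.168) or fNSF + tBHP replicate 1 (0.111), with no filter on low genes (0.0597) and in a fit of those groups alone (0.0622).

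KLF12, which represses the gene of AP-2 alpha through CtBP, was the only member with a lower call. It held 896, 928 and 968 normalized counts in PBS cells and 710.4, 802 and 691 after tBHP. In cNSF cells it held 839, 879.7 and 960.5 and 667, 632 and 488, and in fNSF cells 942, 961 and 932 and 796, 1049 and 638. Of the 9 libraries with tBHP, 8 were below all 9 without, and fNSF + tBHP replicate 2 was above them all. The log2 difference was -0.59 (SE 0.14; adjusted p = 0.00171, limma) in cNSF cells, -0.34 (adjusted p = 0.0466) in PBS cells and -0.22 (adjusted p = 0.217) in fNSF cells. The call in PBS cells was narrow: it was lost in 16 of 30 alternative settings, 13 of which left out 1 library (all but PBS + tBHP replicate 2, cNSF + tBHP replicates 1 and 3 and fNSF + tBHP replicates 2 and 3), with adjusted p up to 0.131. Without fNSF + tBHP replicate 2 the fNSF cells also passed, at -0.41 (adjusted p = 0.00599, limma). Without fNSF + tBHP replicate 3 the value was -0.048 (adjusted p = 0.786), and with the trend on transcript GC content and length removed it passed at -0.34 (adjusted p = 2.09e-05).

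Of the remaining 3 members, KLF7 passed in fNSF cells only and KLF5 and KLF11 in none. KLF7, which is known for axon growth in neurons, held 1455, 1423 and 1516 normalized counts in PBS cells and 1862, 1838 and 1688 after tBHP. It held 1513, 1419 and 1453 and 1697, 1781 and 1249 in cNSF cells, and 1535, 1569.8 and 1599.7 and 1962, 2360.5 and 1613 in fNSF cells. Of the 9 libraries with tBHP, 8 lay above all 9 without, and cNSF + tBHP replicate 3 lay below them all. Its log2 difference was 0.29 in PBS cells (adjusted p = 0.0524, limma), 0.092 in cNSF cells (adjusted p = 0.548) and 0.32 in fNSF cells (adjusted p = 0.0437). The threshold ran through these values. In fNSF cells the call was lost in 14 of 30 alternatives, 12 of which left out 1 library (all but PBS + tBHP replicates 1 and 3, the 3 cNSF + tBHP libraries and fNSF + tBHP replicate 3), with a log2 difference of 0.18 and adjusted p of 0.179 without fNSF + tBHP replicate 2. In PBS cells a call was gained in 12 of 30, among them the fits without cNSF + tBHP replicate 2 or 3 or fNSF + tBHP replicate 2 or 3 (adjusted p of 0.0456, 0.0168, 0.0154 and 0.0199). In cNSF cells KLF7 passed with the trend on transcript GC content and length removed (log2 0.18, adjusted p = 0.0105).

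KLF5, which drives proliferation in gut crypts and smooth muscle, ranged from 144 to 190.4 normalized counts without tBHP and from 137 to 200.0 with it, and its log2 differences were 0.12 (95% interval -0.15 to 0.40), 0.021 (-0.25 to 0.30) and 0.037 (-0.24 to 0.31) in PBS, cNSF and fNSF cells. KLF11, the close relative of KLF10 that TGF-beta also induces, ranged from 111 to 144 and from 93.8 to 164, with log2 differences of 0.17 (95% interval -0.15 to 0.49), -0.11 (-0.43 to 0.21) and 0.058 (-0.26 to 0.38). Both genes overlapped between the states. With 1 library left out, the PBS response ranged from 0.023 (without PBS replicate 1) to 0.22 (without PBS replicate 2) for KLF5, and from 0.041 (without PBS + tBHP replicate 3) to 0.27 (without PBS replicate 2) for KLF11. KLF11 shares 416 exon bases with a gene on the opposite strand, and the kit did not mark strand, so reads there could belong to either.

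**Figure D3:**
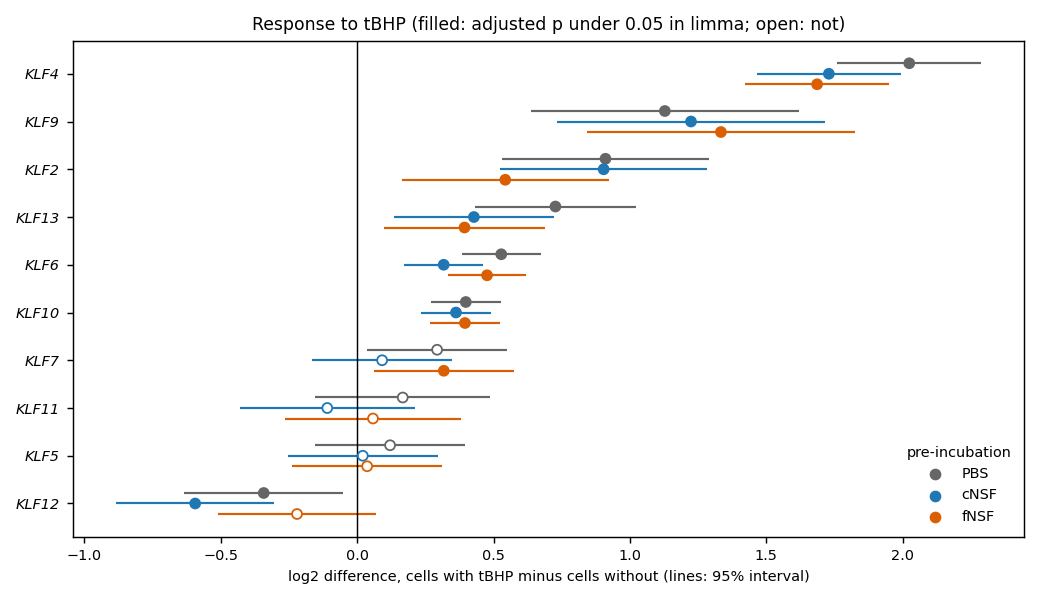
Log2 difference between cells with and without tBHP for each KLF gene and pre-incubation, with 95% intervals from limma. Filled points have an adjusted p under 0.05 and open points do not. KLF4 lies farthest right, at 2.02, 1.73 and 1.69 in PBS, cNSF and fNSF cells, and KLF12 is the only gene with filled points left of 0.

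The pre-incubation was the second comparison. Before tBHP, 0 of the 10 genes differed between cNSF and PBS, fNSF and PBS or cNSF and fNSF in limma (background 0% in each). In edgeR (0 of all genes tested in each) and DESeq2 (background 0%, 0.0219% and 0%) 0 of the 10 differed as well. In fits of the compared groups alone, 0 of the 10 passed as well, against 0%, 0.153% and 7.16% of all genes tested. The values that follow are from the limma fit of all groups. Its spread is shared with the more variable libraries with tBHP, which widens the intervals of a gene that varied less without it. At an unadjusted p under 0.05 (background 0.921%, 0.796% and 1.51%), KLF4 alone differed, in the first of these comparisons: it held 192, 185 and 184 in cNSF cells against 133, 181 and 151 in PBS cells, a log2 difference of 0.28 (95% interval 0.014 to 0.54; unadjusted p = 0.0403, adjusted p = 1.00, limma). The 3 cNSF libraries were above the 3 PBS libraries by a narrow margin (background of no overlap 15.2%), and the difference was 0.17 without PBS replicate 1. Of the other 2 comparisons, 1 gene had no overlap for fNSF against PBS (KLF7, higher in fNSF; background 1914 of the 13686 genes tested) and 3 had none for cNSF against fNSF (KLF4 higher and KLF7 and KLF10 lower in cNSF; background 25.0%). The log2 differences of all 10 genes lay between -0.10 and 0.28 for cNSF against PBS, 0.015 and 0.26 for fNSF against PBS, and -0.17 and 0.20 for cNSF against fNSF.

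After tBHP, 0 of the 10 genes differed between cNSF and PBS cells in limma (background 0%), edgeR (0 of all genes tested) or DESeq2 (background 0.0365%). At an unadjusted p under 0.05 in limma there were 2, KLF6 and KLF12 (background 8.64%). KLF6 held 6081, 6082 and 5694 in cNSF cells and 6691, 7045 and 7399 in PBS cells, with no overlap, and its log2 difference was -0.24 (95% interval -0.39 to -0.098; adjusted p = 0.468, limma). KLF12 was at -0.31 (adjusted p = 0.567), again without overlap, and at -0.17 without cNSF + tBHP replicate 3 and -0.16 with the trend on transcript GC content and length removed. KLF5, KLF6, KLF10 and KLF12 had no overlap between these 2 groups, and all 4 were lower in cNSF cells; 9.57% of all genes tested had no overlap in either direction. For fNSF against PBS after tBHP, 0 of the 10 genes passed in any of the 3 tools. The background was 0.139% in limma and 3.23% in DESeq2, and edgeR called 36 of all genes tested. In limma, 0 of the 10 had an unadjusted p under 0.05 (background 22.7%). KLF4 came nearest there, with a log2 difference of -0.26 (95% interval -0.52 to 0.0057; adjusted p = 0.227, limma), or -0.15 with the trend on transcript GC content and length removed. Without fNSF + tBHP replicate 3, KLF2 passed as lower in fNSF than in PBS cells, at -0.49 (adjusted p = 0.0356), against -0.29 with all libraries, in a fit that called 29.4% of all genes tested. Without PBS + tBHP replicate 1 the KLF2 difference was -0.081, and with the trend on transcript GC content and length removed it turned to 0.10.

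Between cNSF and fNSF cells after tBHP, 0 of the 10 genes passed in limma (background 0%) or edgeR (0 of all genes tested), and 2 passed in DESeq2 (background 6.74%). In a fit of these groups alone 0 passed, against 0% of all genes tested. The limma fit of all groups shares its spread with the less variable libraries without tBHP. That narrows the intervals given next for a gene that varied more after tBHP. At an unadjusted p under 0.05 there were 3 in limma, KLF6, KLF7 and KLF12, all lower in cNSF cells, against 32.2% of all genes tested in either direction. KLF6 lay at -0.23 (95% interval -0.37 to -0.083; adjusted p = 0.0981 in limma and 0.0374 in DESeq2). KLF12 lay at -0.46 (-0.75 to -0.17; adjusted p = 0.0981 in limma and 0.0368 in DESeq2). KLF7 lay at -0.33 (-0.58 to -0.072; adjusted p = 0.102 in limma). KLF2 lay the other way at 0.38 (-0.00061 to 0.76; adjusted p = 0.155). KLF6, KLF9 and KLF10 had no overlap between the 2 groups, each lower in cNSF cells, and such separation in either direction was found for 13.4% of all genes tested.

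These differences changed when single libraries were left out and when the trend with GC content was removed. Without fNSF + tBHP replicate 3, 5 of the 10 genes passed in limma, as did 40.8% of all genes tested: KLF2 at 0.58 (adjusted p = 0.012), KLF6 at -0.26, KLF7 at -0.47, KLF10 at -0.17 and KLF12 at -0.63 (adjusted p = 0.00173). Without fNSF + tBHP replicate 2, the library that stood apart, the differences were 0.22 for KLF2, -0.14 for KLF6, -0.19 for KLF7 and -0.27 for KLF12. The lowest adjusted p of the 10 genes was then 0.572 (limma). Without cNSF + tBHP replicate 3 the differences of these 4 genes were 0.22, -0.20, -0.17 and -0.32, and KLF13 changed sign to 0.075. Of the 10 genes, KLF2 has the most GC-rich transcript (65.2%), KLF13 the next (57.6%) and KLF12 the least (38.8%), the median of the genes tested being 47.9%. In fNSF + tBHP replicate 2, where GC-rich genes were low, KLF2 deviated by -0.54 log2 relative to the average of these 9 libraries, KLF13 by -0.08, KLF12 by 0.57 and KLF7 by 0.42. In cNSF + tBHP replicate 3, where GC-rich genes were high (0.25), KLF2 deviated by 0.47, KLF13 the other way by -0.40, KLF12 by -0.53 and KLF7 by -0.50. In PBS + tBHP replicate 1, where GC-rich genes were as high (0.25), KLF2 deviated by 0.48, but KLF12 by only 0.01 and KLF7 by 0.081. With the trend on transcript GC content and length removed from each library, the cNSF minus fNSF difference was -0.14 for KLF2, -0.12 for KLF6, -0.13 for KLF7 and -0.14 for KLF12, while that of KLF13 went from -0.086 to -0.24. The lowest adjusted p of the 10 genes was then 0.178 (limma). The part of GC content in these differences was not tested.

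**Figure D4:**
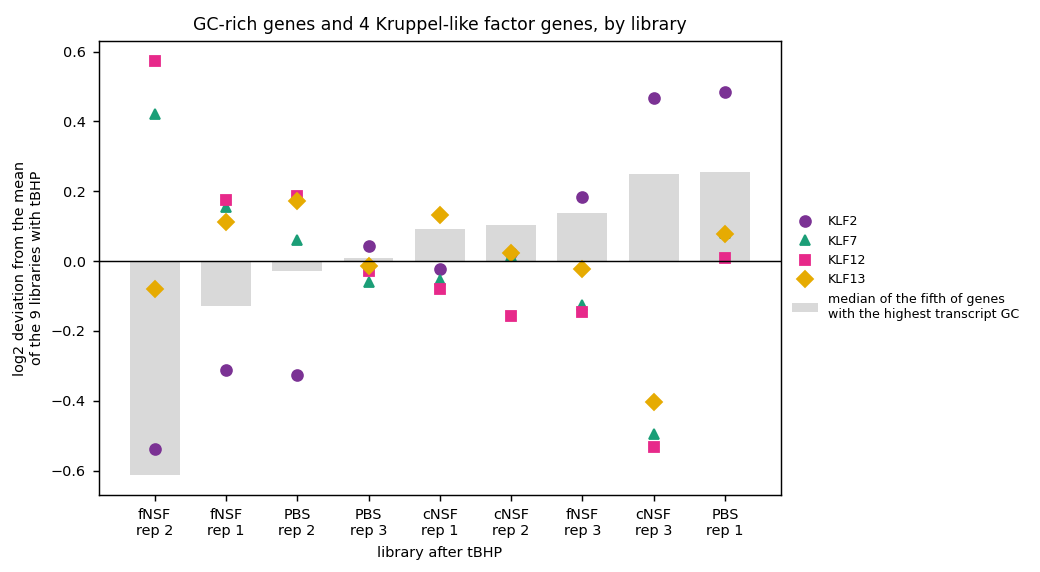
Log2 deviation of each library with tBHP relative to the average of these 9 libraries, ordered by the median of the fifth of genes with the highest transcript GC content (grey bars). Symbols show KLF2, KLF7, KLF12 and KLF13. KLF2 runs from -0.54 in fNSF replicate 2 to 0.48 in PBS replicate 1, and KLF12 from 0.57 in fNSF replicate 2 to -0.53 in cNSF replicate 3, where KLF13 is also low at -0.40.

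**Figure D5:**
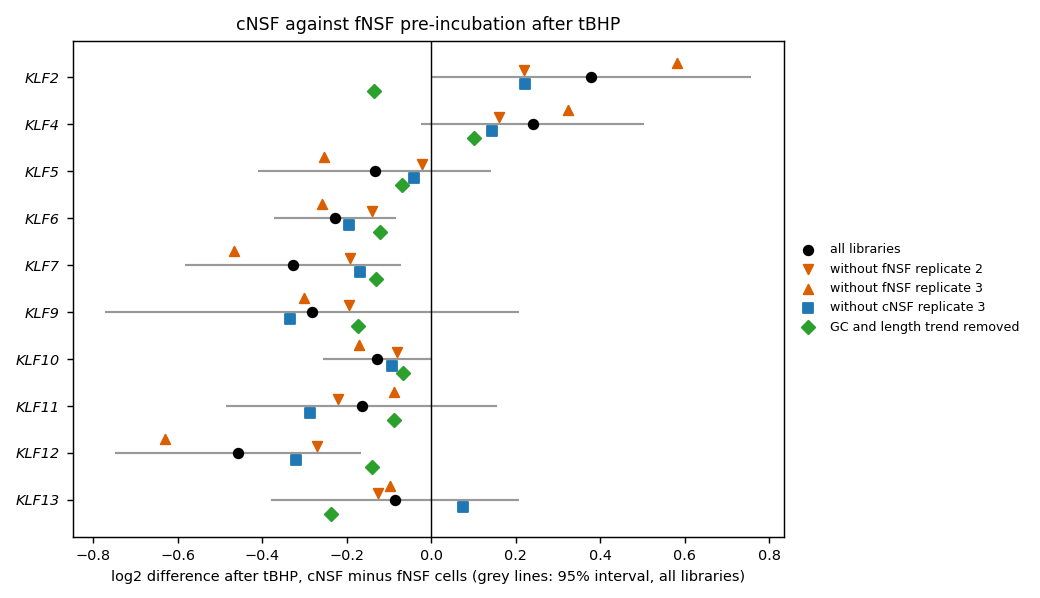
Log2 difference between cNSF and fNSF cells after tBHP for the 10 KLF genes. Black points and grey lines are the estimate and 95% interval with all libraries, and the other symbols are estimates without 1 named library or with the GC and length trend removed. KLF2 lies between -0.14 and 0.58 over these settings, and KLF12 between -0.63 and -0.14.

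Whether the tBHP response itself differed between pre-incubations was tested as an interaction. In limma, 0 of the 10 genes passed for cNSF against PBS, fNSF against PBS or cNSF against fNSF (background 0% in each). In edgeR and DESeq2 0 passed as well, against 0 of all genes tested in edgeR and 0%, 0.0438% and 0% in DESeq2. At an unadjusted p under 0.05 there was 1, KLF6 for cNSF against PBS, against 4.06% of all genes tested, with a smaller response in cNSF cells by a log2 difference of -0.21 (95% interval -0.41 to -0.0073; unadjusted p = 0.0431, adjusted p = 0.999, limma). In the other 2 tests there were 0, against 6.88% and 3.89% of all genes tested. For KLF4 the response differed by -0.29 (95% interval -0.67 to 0.078; -0.19 without PBS replicate 1) between cNSF and PBS cells and by -0.34 (-0.71 to 0.035) between fNSF and PBS cells. Between cNSF and fNSF cells it differed by 0.043 (-0.33 to 0.42). Over the 10 genes these differences lay between -0.30 and 0.096, -0.37 and 0.21, and -0.37 and 0.36 in the 3 tests.

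The rest of the family and its partners were read from gene lists. The counts are of the response in PBS cells unless another is named, where 24.2% of all genes tested were higher and 26.9% lower, with a median of 0.0043. Of 7 other KLF genes, KLF3 (mean 991) and KLF16 (mean 804) were tested and did not pass in PBS cells, KLF1 was at 0 in every library, and KLF8, KLF14, KLF15 and KLF17 had means of 0.844 to 1.89 normalized counts. In cNSF cells KLF3, a CtBP-binding repressor like KLF12, was lower after tBHP by a log2 difference of -0.37 (adjusted p = 0.0107, limma). Of the 5 tested SP genes, the nearest relatives of the KLFs, SP2 was higher (0.68) and SP3 (-0.51) and SP4 (-0.50) were lower in the PBS response, with a list median of 0.22. Of 7 genes of the ERK5-MEF2 route to KLF2 and KLF4, 4 were higher and 2 lower, with a median of 0.30. MEF2D went from 1457 ± 46.4 to 3242 ± 444 normalized counts (1.15; adjusted p = 6.33e-08, limma), while MEF2C went from 206 ± 18.1 to 103 ± 18.5 (-1.01). The kinase MAP3K3 was higher (0.59) and its relative MAP3K2 lower (-0.39).

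For the next 4 lists the background was again 24.2% higher and 26.9% lower. Among 6 tested genes of the glucocorticoid receptor and its usual targets, to which KLF9 belongs, 2 were higher and 2 lower (median 0.00023). TSC22D3 (1.84) and ERRFI1 (1.03) rose, and FKBP5 (-0.43) and SGK1 (-0.27) fell. Among 8 early TGF-beta genes, the class of KLF10 and KLF11, 4 were higher and 2 lower (median 0.12): CTGF, the connective tissue growth factor gene, fell by 0.91 on the log2 scale, while PMEPA1 (0.85), SMAD7 (0.67) and SKI (0.43) rose. Of 12 corepressors and coactivators, 5 were higher and 3 lower (median 0.061), with SIN3A (0.61), the acetyltransferase EP300 (0.55) and CTBP2 (0.53) higher and the acetyltransferase KAT2B lower (-0.63). Of 8 ubiquitin ligases that act on KLF proteins, 2 were higher, SMURF1 (0.72) and FBXO32 (0.65), and 2 lower, SMURF2 (-0.49) and WWP1 (-0.45), with a median of 0.05.

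Of 14 tested genes that have been described as KLF targets, 5 were higher and 5 lower in PBS cells after tBHP (background 24.2% and 26.9%), with a median of -0.012, near that of all genes tested. The cell cycle inhibitor gene CDKN1A went from 5231 ± 228 to 43604 ± 4502 normalized counts (3.06; adjusted p = 2.35e-13, limma). THBD, the anticoagulant receptor gene that KLF2 and KLF4 turn on in endothelium, went from 11.0 ± 2.71 to 80.1 ± 8.33 (2.77). PDGFA rose by 2.22 and VEGFA by 1.22 on the log2 scale, and NOS3, the endothelial nitric oxide synthase gene, was too low to test. In cNSF and in fNSF cells the targets again split into 5 higher and 5 lower. Of the 9 fibroblast markers, 1 was higher (PDGFRB, 0.60) and 4 lower (among them LUM, -1.33). The sum of the 9 ranged from 590925 to 612531 normalized counts without tBHP and from 454106 to 719182 with it. The 4 endothelial markers summed to 1284 to 1459 without tBHP and 712 to 1101 with it, nearly all of it TEK, which was lower after tBHP in PBS cells (-0.40), while the far rarer VWF was higher (1.32). Their part in the KLF responses was not tested.

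The genes whose levels ran most nearly alongside KLF4 over the 18 libraries, among 10304 genes with a mean of at least 100, were PDGFA (Pearson r = 0.993), CEBPB (0.992) and DDIT4 (0.991). For KLF12 they were SPOCK1 (0.986), ITGAV (0.985) and MAP3K2 (0.980). The libraries fall into those with and without tBHP and share that step. Libraries with tBHP also differed among themselves, for KLF12 from -0.53 to 0.57 log2 relative to their average, and genes can share that spread too. These values therefore describe the pattern only.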

How the data were processed

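Per the submitters' processing notes, single-end reads from an unstranded polyA library kit were trimmed with Trimmomatic 0.32, aligned to GRCh38.p7 with STAR 2.5.2b and counted per gene with featureCounts (Subread 1.5.0-p3); the annotation release was not given in the sources used here. The authors deposited a signal per gene and library, the read count divided by the DESeq2 size factor, without strand. Every value was a whole number of reads within 0.001 of a read. A further 3 deposited columns held the authors' p-value, q-value and ranking of their own comparison and were not used.

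Genes with a mean of at least 10 (13686 of 56269) were fitted with limma 3.58.1 in R 4.3.3 on log2(value + 1), with 1 coefficient per group, all 18 libraries and a mean-variance trend. Fold changes are on that scale and understate those of low genes. Tests were two-sided, with Benjamini-Hochberg adjustment over all genes tested and a threshold of 0.05. The fit was tested on simulated data with the same dispersion for all genes and groups and no GC trend. The simulation did not copy the larger spread after tBHP. The 30 alternatives were pseudocounts of 0.1 and 5, no filter, a minimum mean of 50, median and quantile scaling, edgeR 4.0.16 and DESeq2 1.42.0 on the recovered reads, only the groups compared, a replicate block, removal of the trend with transcript GC content and length (GENCODE release 29, natural splines with 5 degrees of freedom), both of these together, and each library left out. The members and lists were chosen with earlier results of these data known. All 10 KLF genes are named. From each other list, at most 4 genes are named, those past the threshold in PBS cells with the largest log2 change, together with markers, genes at 0 or untested, and KLF3 in cNSF cells, which were chosen after their values were seen. For KLF4 and KLF12, the members with the largest rise and fall, the 3 genes with the highest Pearson r are named.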

Additional observations from a re-analysis of the deposited data

How the results depend on the processing

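The 12 counts of KLF genes that passed and 51 results of single KLF genes were recomputed under 30 alternatives each. Of the counts, 9 stayed within 1.5 times the reported count in all 30, and 29 of the 51 results kept direction and call. Most of these 9 were counts of 0 in comparisons where limma called 0 of all genes tested, so little could move there. Among the 29 were the responses of KLF4, KLF6, KLF9 and KLF10 in all 3 pre-incubations. Removal of the GC and length trend could not test these responses for a trend between the states with and without tBHP. The count of the fNSF response was 4 in place of 7 with only the groups compared (31.2% of all genes called), and ranged from 4 (without fNSF replicate 2; 34.9%) to 7 with 1 library left out. After tBHP, the count for fNSF against PBS ranged from 0 to 1 and that for cNSF against fNSF from 0 to 5 with 1 library left out, the highest without fNSF + tBHP replicate 3, where 29.4% and 40.8% of all genes were called. The latter was 2 with DESeq2 (6.74%). Over all genes tested, fNSF against PBS after tBHP gave 19 calls in limma, 36 in edgeR and 442 in DESeq2, and cNSF against fNSF after tBHP gave 0, 0 and 923. With the GC and length trend removed, with or without the replicate block, KLF2 turned direction after tBHP, to -0.031 for cNSF against PBS, 0.10 for fNSF against PBS and -0.14 for cNSF against fNSF, as did the KLF4 interaction for cNSF against fNSF at -0.070. With 1 library left out, the log2 difference changed sign in KLF5 (-0.038 to 0.11), KLF7 (-0.0051 to 0.25) and KLF11 (-0.23 to 0.035) in the cNSF response and in KLF5 (-0.075 to 0.16) and KLF11 (-0.019 to 0.11) in the fNSF response. It also did so for cNSF against PBS after tBHP in KLF4 (-0.11 to 0.076) and KLF2 (-0.11 to 0.30), for cNSF against fNSF after tBHP in KLF13 (-0.19 to 0.075), and for the KLF4 interaction of cNSF against fNSF (-0.053 to 0.14). None of these 9 had passed the test, and the cause was not tested. The replicate numbers were not taken to pair the libraries, because deviations of same-numbered libraries correlated at -0.119 to 0.333 over 45 pairs and at over 0.1 in 7 of them (median 0.034, against -0.017 for other pairs), although 10 of 18 libraries correlated best with their own number, a hint from the data and not from the design. With the replicate block KLF7 passed in the PBS response (adjusted p = 0.0343, limma), and the counts were 8, 7 and 7 in the PBS, cNSF and fNSF responses and 0 in the other 9 comparisons. The lowest KLF9 library held 36 reads, so counting error is largest there.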
